A study of Mus musculus with 20 samples.

Results

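Semaphorins, their plexin receptors and the neuropilin co-receptors were followed in the transcriptome of mouse subcerebral projection neurons, the cortical neurons whose axons grow to the brainstem and spinal cord. The genes were chosen by symbol alone, as every gene named Sema3 to Sema7, Plxn or Nrp, which gave 31 of the 55487 genes counted. They comprise 7 secreted class 3 semaphorins, 13 membrane-bound semaphorins of the other classes, 9 plexins and 2 neuropilins. The study compared cell bodies (somata), collected from cortex, with the growing axon tips (growth cones) of the same neuron type, collected from the brainstem and spinal cord. All libraries came from mice at postnatal day 1, and each group held 5 libraries. The groups were WT somata, WT growth cones, somata labelled KO and growth cones labelled KO, where the label KO stands for a null genotype of Bcl11b, a transcription factor of these neurons. The labels do not say which part of Bcl11b the null allele lacks, how somata and growth cones were marked and isolated, or whether libraries of a group came from separate animals, so p-values measure the spread between these libraries, which may be technical.

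Semaphorins are guidance cues that steer, repel or attract growing axons. Class 3 semaphorins are secreted and mostly act through a complex in which a neuropilin binds the ligand and a class A plexin carries the signal across the membrane. Sema3e is the exception in that family, since it binds Plxnd1 directly without needing a neuropilin. Classes 4 to 7 are held at the membrane and bind plexins without neuropilins. Inside the growth cone, plexins act as regulators of small GTPases, and through kinases and collapsin response mediator proteins they reshape actin and microtubules.

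Of one ligand and receptor pair, the ligand Sema3e was lower in growth cones than in somata among libraries labelled KO and the receptor Plxnd1 was higher in growth cones of both genotypes. The bases upstream of both start sites are given here to show the sequence context of the pair. The windows are the 250 bases before the annotated start in RefSeq sequence on GRCm38.p6, read 5′ to 3′ on the strand of the gene. The Sema3e window is chr5:14025026-14025275 on the plus strand, and the Plxnd1 window is chr6:115995006-115995255 on the minus strand. Capitals mark matches to the GC box, a short G- and C-rich promoter motif.
Sema3e: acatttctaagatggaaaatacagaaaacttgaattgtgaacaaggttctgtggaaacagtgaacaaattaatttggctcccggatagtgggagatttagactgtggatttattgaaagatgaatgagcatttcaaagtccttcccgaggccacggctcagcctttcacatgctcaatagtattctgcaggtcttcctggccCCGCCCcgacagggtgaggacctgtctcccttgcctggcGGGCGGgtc
Plxnd1: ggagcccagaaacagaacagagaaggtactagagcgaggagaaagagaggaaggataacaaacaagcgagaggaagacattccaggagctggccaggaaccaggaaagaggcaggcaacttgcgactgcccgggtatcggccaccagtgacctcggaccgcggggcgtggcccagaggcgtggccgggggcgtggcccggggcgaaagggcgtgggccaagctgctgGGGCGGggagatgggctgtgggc
Both windows held the GC box (GGGCGG, or CCGCCC on the other strand), which began 48 and 9 bases before the start of Sema3e and 23 bases before that of Plxnd1. The same windows were searched for the TATA box, read as TATAAA on one strand and TTTATA on the other, and neither held it. Neither held the CCAAT box (on the opposite strand, ATTGG). The E-box, which reads CACGTG on both strands, was also not found in them. Windows were found in RefSeq for 26 of the 31 genes, 37 windows in all because some genes have several starts. The GC box was present in 27 of these 37 windows (73.0%), against 32.7% of the 32851 windows of all genes. The TATA box was present in 0 of 37 (12.4% of all windows), the CCAAT box in 7 (18.9%, against 33.8%) and the E-box in 2 (5.4%, against 6.0%). The median content of G and C was 64.0% in the family's windows and 52.4% in all windows. A match is a description of letters and not a measured binding site.

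Library totals were 26382991 to 29323028 counts in WT growth cones, 21657575 to 27723067 in growth cones labelled KO, 35243688 to 51205154 in somata labelled KO and 18962308 to 36059112 in WT somata. Bcl11b, the targeted gene, was not lower in the libraries labelled KO. Its level, in counts scaled to the TMM-adjusted library total (CPM), was 537 to 805 in WT somata. Somata labelled KO had 1079 to 1231 CPM, 0.71 ± 0.12 (SE) higher on the log2 scale (edgeR quasi-likelihood test, adjusted p = 0.0153), and at 72.3 to 122 and 69.7 to 140 CPM in the growth cone groups. Counts of Bcl11b alone therefore do not bear out the soma labels, and whether the allele leaves the counted exons in place was not tested. Other genes did differ between the soma groups. Of 10 markers of subcerebral projection neurons, 3 were called higher in somata labelled KO, against 0.416% of all genes, and 2 lower, against 0.315%. Besides Bcl11b, the higher ones were Etv1 (log2 fold change 1.73) and Tox (0.56), and the lower ones were Pcp4 (-1.86) and Crym (-2.20). Markers of several other cell types, though not of all, were higher in growth cone libraries. Among all genes tested, 23.1% (WT) and 21.6% (labelled KO) were called higher there, and 19.7% and 17.0% lower. Summed astrocyte markers ranged from 768 to 1057 CPM in WT growth cones, 658 to 1069 in growth cones labelled KO, 112 to 280 in somata labelled KO and 24.4 to 210 in WT somata, and 9 of 10 (WT) and 7 of 10 (labelled KO) rose in growth cones. Summed oligodendrocyte lineage markers were 532 to 2219, 573 to 1640, 89.6 to 127 and 66.3 to 129 CPM in the same order of groups, and 7 of 10 and 6 of 9 tested rose. Meningeal and fibroblast markers were 135 to 269, 105 to 268, 3.45 to 20.8 and 1.94 to 29.6 CPM (5 of 7 rose in each genotype), interneuron markers 647 to 902, 628 to 1022, 410 to 545 and 122 to 202 CPM (8 of 9 rose in each, and the other one, Npy, fell by 1.46 on the log2 scale in libraries labelled KO), callosal neuron markers without Plxnd1 566 to 817, 614 to 746, 201 to 317 and 214 to 316 CPM (4 of 6 rose in each), and endothelial markers 29.7 to 107, 53.3 to 118, 7.27 to 74.9 and 12.8 to 35.1 CPM (1 of 5 and 2 of 6 rose). Homeobox markers of hindbrain and spinal cord had sums of 88.8 to 166 and 61.2 to 223 CPM in the growth cone groups and of at most 0.208 CPM in any soma library, where 6 (WT) and 10 (labelled KO) of the 15 were at 0. Motor neuron markers had sums of 66.0 to 94.3 (WT) and 22.7 to 115 CPM (labelled KO) in growth cones. In somata they had 8.06 to 22.8 and 0.676 to 17.0 CPM, and 2 of 4 (WT) and 2 of 3 (labelled KO) tested rose. Of that list, Chat, Isl2 and Mnx1 were at 0 in all somata and in WT growth cones. Markers of subcerebral projection neurons, Bcl11b included, had sums of 734 to 1071 (WT) and 738 to 1133 CPM (labelled KO) for growth cones. Their sums for somata were 2575 to 2870 and 2993 to 3232 CPM. By gene, 1 of 10 rose and 8 fell in WT growth cones, and 2 rose and 8 fell in those labelled KO. Pcp4 rose in both genotypes and Crym in libraries labelled KO. Corticothalamic neuron markers also had lower sums in growth cones, at 283 to 607 (WT) and 263 to 491 CPM (labelled KO). In somata these were 997 to 1206 and 821 to 1101 CPM. Of 7 tested, 1 rose and 1 fell in WT growth cones, and 1 rose and 3 fell in those labelled KO. Hs3st4 was the gene that rose in each genotype, and the list's WT median log2 fold change was -0.06. Microglial sums overlapped, at 66.6 to 105 (WT) and 43.8 to 152 CPM (labelled KO) in growth cones. In somata they were 5.80 to 116 and 13.1 to 130 CPM, and 2 of 9 microglial markers rose in growth cones of each genotype. The part of these cells in the results on semaphorins, plexins and neuropilins was not tested, and in bulk RNA fewer cells of a type and less RNA per cell cannot be told apart. Compartment, tissue of origin and experiment number cannot be told apart either, since growth cones and somata were never taken from the same tissue or under the same experiment number. Per the labels, the RNA that went into a growth cone library was 0.19 to 3.1 ng, while soma libraries started from 1.8 to 3.1 ng.

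Family transcripts were a small share of each library. Summed over the 31 genes, they made up 1267 to 1607 CPM in somata labelled KO and 856 to 1458 CPM in WT somata, against 635 to 849 CPM in WT growth cones and 528 to 859 CPM in growth cones labelled KO. The highest WT growth cone library was thus below the lowest WT soma library. Class 3 semaphorins held 13.9% of the family's CPM in WT somata, 8.53% in WT growth cones, 22.8% in somata labelled KO and 6.71% in growth cones labelled KO.

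Levels of different genes were compared per kilobase of exon (CPM per kb). In WT somata the family was led by Sema6b, a transmembrane semaphorin that binds class A plexins, at a mean of 30.1 CPM per kb. Sema4f, a synapse-associated membrane semaphorin, followed at 19.03, then Plxna1 at 16.7, Sema6c at 15.5 and Sema3c at 14.2 CPM per kb. Somata labelled KO had an order that began with Sema3c at 24.5 CPM per kb, Sema6b at 23.6, Sema4f at 20.2 and Sema6c at 16.7. In growth cones Sema6b was again first, at 9.09 CPM per kb in WT and 8.22 in those labelled KO. Plxnb2, a receptor for class 4 semaphorins, was next in WT growth cones at 7.93 CPM per kb, followed by Sema6a, which signals through Plxna2 and Plxna4, at 7.48. In growth cones labelled KO Sema6a stood at 7.11, Plxnb2 at 6.61 and Sema4f at 6.54 CPM per kb. Neighbours in these orders were close relative to their spread: Sema6a in CPM was 65.7 ± 26.6 and Plxnb2 61.2 ± 14.6 in WT growth cones (SD, n = 5).

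At the other end of the range, Sema3g, a class 3 semaphorin best known from vessels, had 0 counts in all growth cone libraries and in all WT somata. With 3 counts as the limit that a count of 0 allows, its level was at most 0.0215 CPM in WT growth cones, 0.0239 in growth cones labelled KO and 0.0191 in WT somata, each over the group's summed counts and for counting error only. Among somata labelled KO it had 97 counts in library 14, 117 in library 25 and 0 in the other libraries. Plxnb3, a class B plexin of glia, was at 0 in all libraries labelled KO, which allows up to 0.0141 CPM in these somata and 0.0239 CPM in these growth cones, and it reached 3.32 CPM in 1 WT soma library and at most 2.73 CPM in 3 WT growth cone libraries. Neither gene passed the filter on low counts in any comparison, and Sema3d, also a secreted ligand, did not pass it in the comparisons among libraries labelled KO and among growth cones.

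The spread between libraries was wide for these genes. Among members with a mean of at least 5 CPM, the median coefficient of variation was 48.9% in WT growth cones, 61.0% in growth cones labelled KO, 31% in somata labelled KO and 34% in WT somata. All genes at that level had medians of 42.5%, 46.4%, 19.5% and 23.1% in the same order. The family's median was therefore above that of all genes past the same minimum in each of the 4 groups. Beyond that minimum the genes were not matched by level, and the part of level in this difference was not tested.

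The first question was how the family's transcripts are distributed between growth cone and soma. In WT, 8 members were lower and 4 were higher in growth cones, and in libraries labelled KO 12 were lower and 2 were higher. The genes lower in growth cones of both genotypes were the ligand Sema3c, the membrane semaphorins Sema4c, Sema4f, Sema6b and Sema6c, the receptors Plxna1 and Plxna2 and the co-receptor Nrp1. The genes higher in both were the co-receptor Nrp2 and the receptor Plxnd1. The family was not called more often than other genes in WT: 12 of 29 members tested (41.4%) passed a false discovery rate (FDR) of 0.05 by edgeR, against 42.8% of all genes. Of the members tested in libraries labelled KO, 14 of 28 passed, against 38.6% of all genes. By direction, 27.6% of members were called lower and 13.8% higher in WT, where 19.7% and 23.1% of all genes were, and 42.9% and 7.14% in libraries labelled KO, where 17.0% and 21.6% of all genes were.

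**Figure D1:**
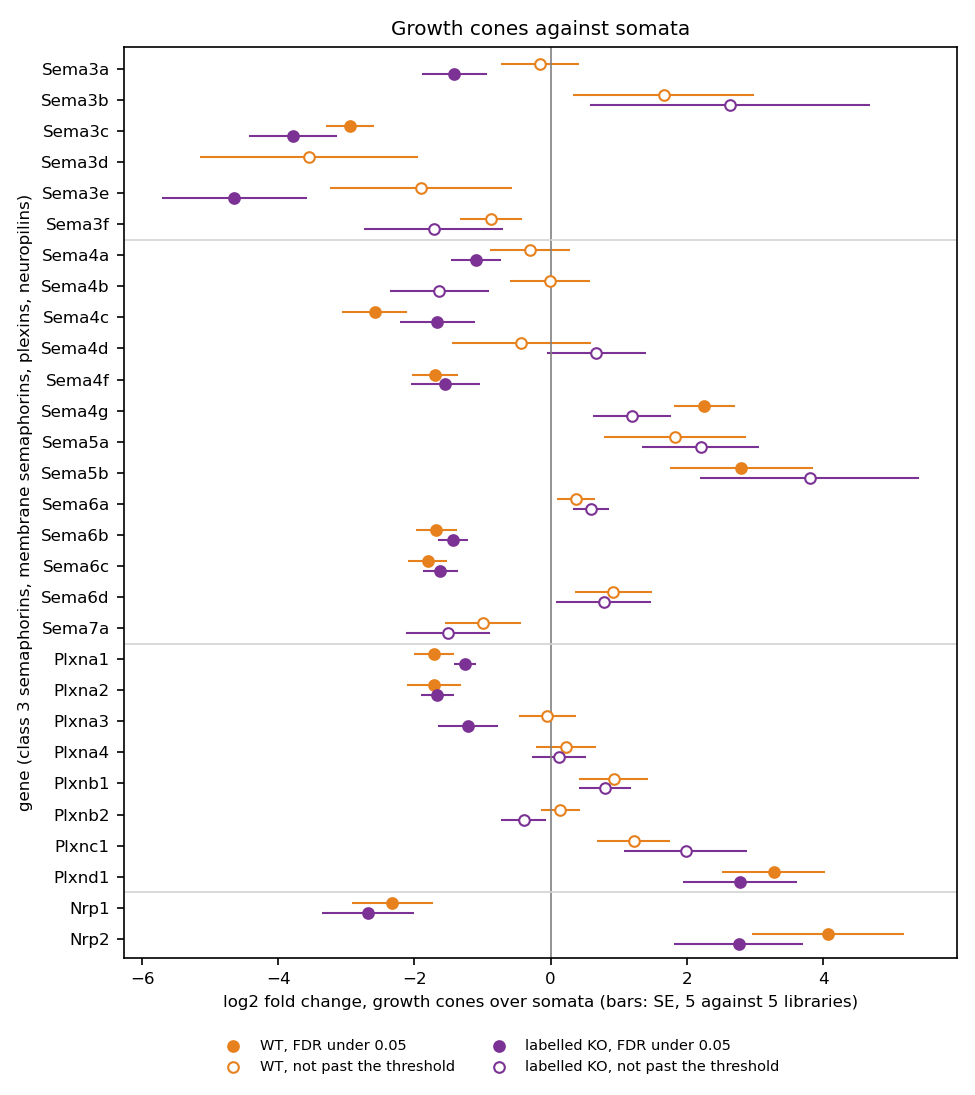
Log2 fold change of growth cones over somata (x axis) for each tested member (y axis), in WT (orange) and in libraries labelled KO (purple); bars are SE of the edgeR fit of 5 against 5 libraries and filled points passed FDR 0.05. Sema3c and Nrp1 lie left of 0 and Plxnd1 and Nrp2 right of 0 in both genotypes.

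The median log2 fold change of the members was -0.16 in WT, where the median of all genes tested was 0.07. For libraries labelled KO the medians were -1.15 and 0.11. In WT, 11 of 29 members (37.9%) had groups that did not overlap, the same share as among all genes (37.9%). This held for 13 of 28 in libraries labelled KO (46.4%, against 36.9% of all genes). An unadjusted p under 0.05 was reached by 14 of 29 members in WT (50.8% of all genes) and 19 of 28 in libraries labelled KO (46.8% of all genes). Upper-quartile scaling moved the median of all genes to 0.28 in WT and to 0.31 in libraries labelled KO, and it changed the calls in the latter from 2 higher and 12 lower to 4 higher and 7 lower. The WT median of the members changed sign with it, to 0.06, and without growth cone library 7 or 11 (0.03 each) or soma library 14 (0.005). None of the called members changed sign under any alternative run. The plot of fold changes shows that most members lie on the same side of 0 in both genotypes: 26 of 28 did (92.9%, against 86.0% of all genes), with Plxnb2 and Sema4d the exceptions, neither of them called. The genotypes share no library in these comparisons.

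Among the secreted ligands, Sema3c (chr5:17574281-17730268 on GRCm38) was the gene with the lowest p of the family in WT. Its CPM in WT somata, in the order of experiments 12, 14, 22, 25 and 26, was 59.2, 59.6, 118, 118 and 153, and in WT growth cones, experiments 7 to 11, it was 17.5, 9.35, 13.7, 15.1 and 7.69. In somata labelled KO, experiments 14, 15, 22, 25 and 26, it was 110, 188, 203, 149 and 225, and in growth cones labelled KO 1.12, 4.05, 15.6, 19.5 and 20.04. Every growth cone library was below every soma library. The log2 fold change of growth cones over somata was -2.95 ± 0.35 in WT, or 7.74-fold lower (adjusted p = 4.19e-05), and the log2 fold change was -3.78 ± 0.65 in libraries labelled KO, or 13.7-fold lower (adjusted p = 0.00075).

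Sema3e (chr5:14025276-14256689 on GRCm38), the ligand of Plxnd1, fell in growth cones of the libraries labelled KO. Its CPM in somata labelled KO was 63.5, 50.2, 72.2, 98.2 and 108, and in growth cones labelled KO 0.207, 9.58, 0.173, 4.45 and 0.36. The groups did not overlap, and the difference was 25-fold (log2 fold change -4.65 ± 1.06, adjusted p = 0.0046). In WT somata it was 0, 2.62, 23.4, 14.6 and 25.5, and in WT growth cones 0.233, 6.51, 1.19, 0.961 and 8.17. The WT groups overlapped, with soma library 12 below and soma library 14 within the growth cone range, and the WT difference of -1.90 ± 1.33 did not pass the test (adjusted p = 0.276).

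Sema3a, the classic collapsing ligand that binds Nrp1, had 31.5 to 104 CPM in somata labelled KO and 7.37 to 30.3 CPM in growth cones labelled KO. Its log2 fold change there was -1.42 ± 0.48 (adjusted p = 0.0354), and it lost the call in 5 of 10 fits that left out 1 library, up to an adjusted p of 0.109 without soma library 26. In WT the value was -0.16 ± 0.57 (adjusted p = 0.853). Sema3f, the ligand of Nrp2, had values of -0.88 ± 0.46 in WT and -1.72 ± 1.02 in libraries labelled KO, neither past the test. Sema3b, with 1.66 ± 1.33 and 2.64 ± 2.06, was the only class 3 semaphorin with a positive value, also not past the test, and Sema3d, tested only in WT, had -3.55 ± 1.60 (adjusted p = 0.0934).

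Of the 13 membrane semaphorins, 4 fell and 2 rose in WT growth cones (30.8% and 15.4%), and 5 fell and 0 rose in growth cones labelled KO. The shares of all genes tested were 19.7% lower and 23.1% higher in WT, and 17.0% and 21.6% in libraries labelled KO. Sema6b ranged from 101 to 146 CPM in WT somata and 19.8 to 54.1 in WT growth cones, and from 80.3 to 104 and 20.9 to 44.3 CPM in libraries labelled KO. Its log2 fold change was -1.68 ± 0.30 (adjusted p = 0.000755) in WT and -1.44 ± 0.22 (adjusted p = 0.000349) in libraries labelled KO. Sema6c, its close relative, ranged from 72.7 to 110 CPM in WT somata and 13.6 to 40.3 in WT growth cones, and fell by 1.81 ± 0.28 log2 units (adjusted p = 0.000311). With the KO label Sema6c ranged from 90.2 to 107 and from 17.0 to 49.2 CPM, with a log2 fold change of -1.62 ± 0.26 (adjusted p = 0.00049). Neither gene had overlapping groups in either genotype, so Sema6b and Sema6c were lower in growth cones library by library. The other class 6 genes, Sema6a and Sema6d, had positive values in both genotypes, not past the test.

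Sema4c, a ligand of class B plexins, had 28.7 to 68.5 CPM in WT somata and 3.86 to 17.7 in WT growth cones, a log2 fold change of -2.58 ± 0.48 (adjusted p = 0.00104). Under the label KO it had 40.1 to 59.7 and 3.74 to 34.7 CPM, a log2 fold change of -1.66 ± 0.55 (adjusted p = 0.0328). Sema4f had 60.9 to 133 CPM in WT somata and 16.7 to 52.5 in WT growth cones (-1.69 ± 0.34, adjusted p = 0.00167), and 92.5 to 123 and 5.02 to 66.6 CPM in libraries labelled KO (-1.55 ± 0.51, adjusted p = 0.0299). The groups of both genes were apart in both genotypes. Both calls among libraries labelled KO were less stable: Sema4c lost its call in 5 of 10 fits that left out 1 library (up to an adjusted p of 0.0656, without soma library 15), and Sema4f in 4 of 10 (up to 0.0702, without growth cone library 9). An antisense gene, D430040D24Rik, covers 7.27% of the exon length of Sema4c, and since the use of strand in counting is not stated, its reads cannot be told apart from those of Sema4c there.

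Sema4g, a membrane semaphorin with few assigned functions in neurons, went the other way in WT. Its CPM was 15.3, 8.53, 9.46, 3.26 and 7.98 in WT somata and 28.9, 41.8, 24.2, 41.2 and 70.0 in WT growth cones, with no overlap and a log2 fold change of 2.26 ± 0.45 (adjusted p = 0.00163). Libraries labelled KO had 12.9, 9.25, 8.22, 11.7 and 9.72 in somata and 15.7, 25.8, 23.3, 44.9 and 3.06 in growth cones. Growth cone library 11 was the lowest of those 10, and the value of 1.20 ± 0.57 did not pass the test (adjusted p = 0.121). Sema5b, which carries thrombospondin repeats, was called higher in WT growth cones (2.80 ± 1.05, adjusted p = 0.0487), but its groups overlapped and the call was lost in 7 of 10 fits that left out 1 library, up to an adjusted p of 0.0938 without soma library 25. The value in libraries labelled KO was 3.80 ± 1.61 (adjusted p = 0.0833).

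Sema4a was called lower in growth cones labelled KO, at 8.90 to 15.4 CPM against 14.5 to 36.5 CPM in somata (-1.10 ± 0.36, adjusted p = 0.0313), and the groups overlapped. That call was lost in 4 of 10 fits that left out 1 library, up to an adjusted p of 0.0871 without soma library 25. The other membrane semaphorins were not called by edgeR in either genotype, although in libraries labelled KO DESeq2 called Sema4b, Sema5a and Sema7a, and upper-quartile scaling called Sema5a and Sema6a. Sema5a had log2 fold changes of 1.83 ± 1.04 in WT and 2.20 ± 0.86 in libraries labelled KO, Sema6a 0.37 ± 0.29 and 0.59 ± 0.27, and Sema6d, a ligand of Plxna1, 0.92 ± 0.56 and 0.78 ± 0.70. Sema7a, the lipid-anchored ligand of Plxnc1, had -0.99 ± 0.56 and -1.51 ± 0.61, Sema4b -0.01 ± 0.59 and -1.64 ± 0.73, and Sema4d, the ligand of Plxnb1, -0.43 ± 1.02 and 0.67 ± 0.73.

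**Figure D2:**
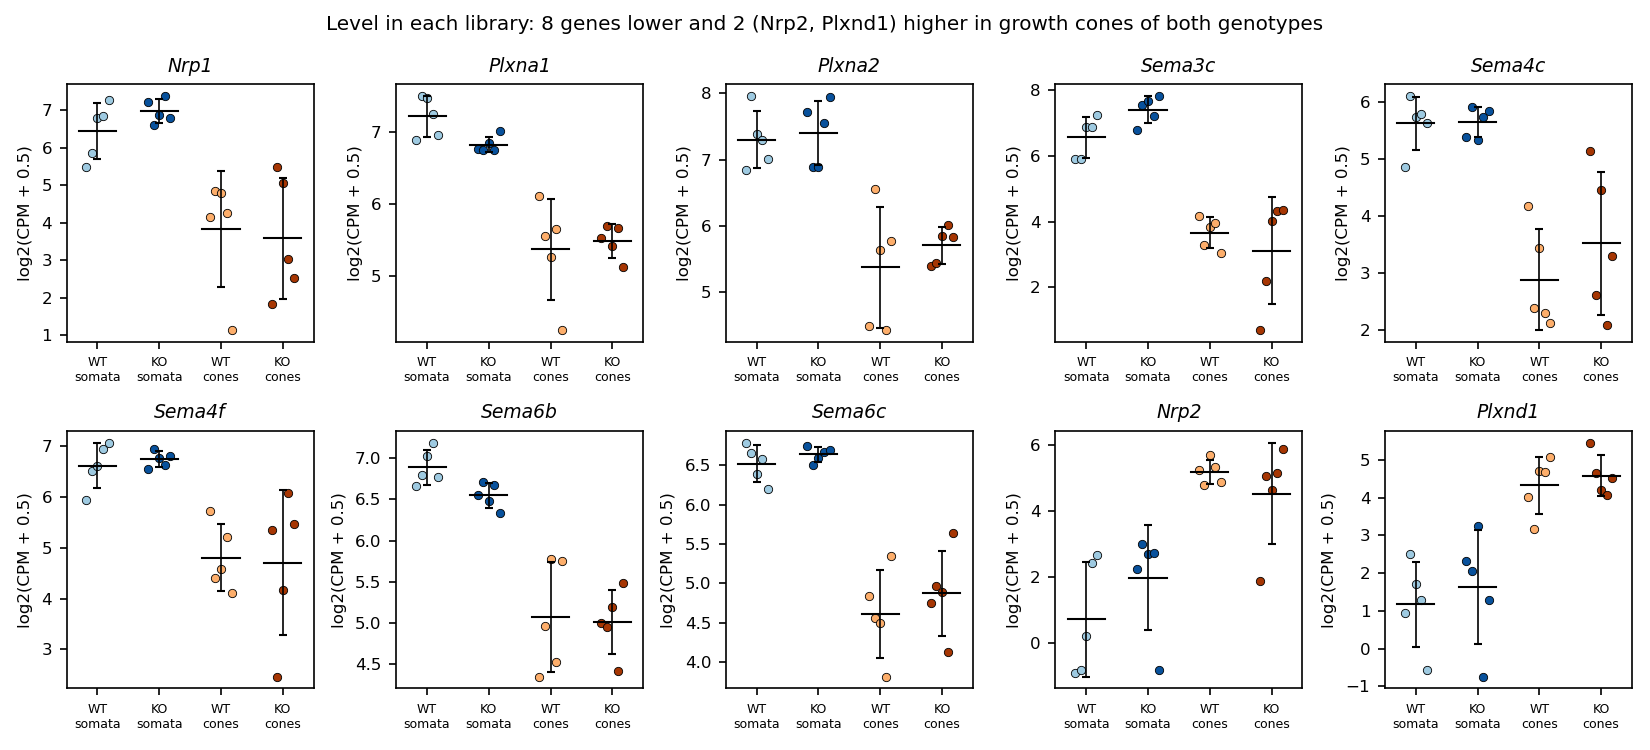
Level of the 10 genes called in the same direction in both genotypes, as log2(CPM + 0.5) (y axis) in each of 5 libraries per group (points), with the mean (line) and SD (bar); KO is the label. Groups of growth cone points lie below the soma points for 8 genes and above them for Nrp2 and Plxnd1, with 1 Nrp2 growth cone library labelled KO among the soma values.

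Of the plexins, the class A receptors Plxna1 and Plxna2, which carry class 3 and class 6 signals, fell in growth cones of both genotypes and Plxnd1 rose in both, while the other class A plexins, Plxna3 and Plxna4, did not follow in WT. Plxna1 (chr6:89316314-89362620 on GRCm38) had 119, 180, 178, 152 and 124 CPM in WT somata and 69.1, 46.7, 38.1, 50.1 and 18.6 in WT growth cones, a log2 fold change of -1.71 ± 0.30 (adjusted p = 0.000672). Labelled KO, it had 108 to 129 CPM in somata and 34.6 to 51.7 in growth cones, -1.26 ± 0.16 (adjusted p = 0.000113). Plxna2 had 114 to 248 CPM in WT somata and 21.1 to 93.4 in WT growth cones (-1.72 ± 0.39, adjusted p = 0.00403), and 118 to 247 and 41.5 to 64.2 CPM in libraries labelled KO (-1.67 ± 0.24, adjusted p = 0.000226). For both receptors all growth cone libraries were below all soma libraries of their genotype. The antisense gene Gm26811 covers 10.71% of the exon length of Plxna1.

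Plxna3, a class A plexin that works with Nrp2 in axon pruning, was called lower only in growth cones labelled KO (7.46 to 42.3 CPM against 50.7 to 63.1; -1.21 ± 0.44, adjusted p = 0.0481), and the call was lost in 8 of 10 fits that left out 1 library, up to an adjusted p of 0.103 without growth cone library 9. In WT it had 15.7 to 64.8 CPM in somata and 15.3 to 59.4 in growth cones (-0.05 ± 0.42). The genotype difference of this compartment effect was not called (interaction -1.19 ± 0.63, adjusted p = 0.784). Plxna4, the other class A plexin, had values of 0.23 ± 0.44 and 0.12 ± 0.40, Plxnb1 0.93 ± 0.51 and 0.80 ± 0.38, and Plxnb2 0.14 ± 0.29 and -0.40 ± 0.33. Plxnc1, the receptor of Sema7a, had 1.22 ± 0.54 (adjusted p = 0.0854) and 1.98 ± 0.91 (adjusted p = 0.108), and it was called higher by DESeq2 in both genotypes and under upper-quartile scaling in WT.

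Plxnd1 (chr6:115954811-115995005 on GRCm38), the receptor of Sema3e, had 1.41, 5.14, 2.76, 1.95 and 0.172 CPM in WT somata and 15.5, 8.55, 25.4, 25.1 and 33.0 CPM in WT growth cones. Libraries labelled KO had 4.49, 3.62, 8.997, 0.0992 and 1.96 CPM in somata and 43.3, 24.6, 18.02, 16.4 and 22.5 CPM in growth cones. No soma library reached any growth cone library of its genotype. The log2 fold change was 3.27 ± 0.76 in WT (9.68-fold, adjusted p = 0.00426) and 2.78 ± 0.84 in libraries labelled KO (6.89-fold, adjusted p = 0.0206). The latter rose to an adjusted p of 0.056 without soma library 26. Plxnd1 is abundant in vessels as well as in callosal neurons, and endothelial markers were at 29.7 to 118 CPM in the growth cone libraries and 7.27 to 74.9 CPM in somata. Callosal neuron markers other than Plxnd1 summed to 566 to 817 CPM in growth cone libraries and 201 to 317 CPM in soma libraries. The part of vessels or of callosal neurons in the Plxnd1 difference was not tested.

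The neuropilins changed in opposite directions. Nrp1, the co-receptor for Sema3a (chr8:128358604-128503363 on GRCm38), had 44.5, 58.1, 110, 114 and 155 CPM in WT somata and 17.4, 28.1, 27.3, 18.8 and 1.69 CPM in WT growth cones. In libraries labelled KO it had 148, 96.8, 117, 166 and 110 CPM in somata and 3.02, 44.7, 32.8, 7.62 and 5.26 CPM in growth cones. All growth cone libraries were below all soma libraries of their genotype, 5.01-fold in WT (log2 fold change -2.33 ± 0.59, adjusted p = 0.00734) and 6.42-fold in libraries labelled KO (-2.68 ± 0.67, adjusted p = 0.00778).

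Nrp2, the co-receptor for Sema3f (chr1:62703285-62818695 on GRCm38), had 0.0314, 0.0595, 0.65, 4.85 and 5.85 CPM in WT somata and 37.2, 27.0, 51.6, 40.3 and 28.7 CPM in WT growth cones. These groups were far apart, 16.8-fold by the fit (log2 fold change 4.07 ± 1.12, adjusted p = 0.011). In libraries labelled KO it had 4.25, 7.56, 6.01, 6.18 and 0.0621 CPM in somata and 3.19, 33.1, 24.6, 35.2 and 58.6 CPM in growth cones. Growth cone library 7 lay among the somata, and the call (2.76 ± 0.95, adjusted p = 0.0369) was lost in 8 of 10 fits that left out 1 library, up to an adjusted p of 0.0833 without growth cone library 11.

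As a share of the neuropilin level per kilobase, Nrp2 made up 44.2% to 93.3% in WT growth cones, with a median of 63.8%, and 38.0% to 90.2% in growth cones labelled KO, with a median of 46.6%. In WT somata it made up 0.0582% to 3.39%, and 0.0466% to 6.06% in somata labelled KO. The ranges of the growth cones and the somata were apart in both genotypes, including growth cone library 7 labelled KO, in which both neuropilins were low. The plot of Nrp2 against Nrp1 shows the somata gathered at high Nrp1 and low Nrp2 and the growth cones nearer to equal levels.

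**Figure D3:**
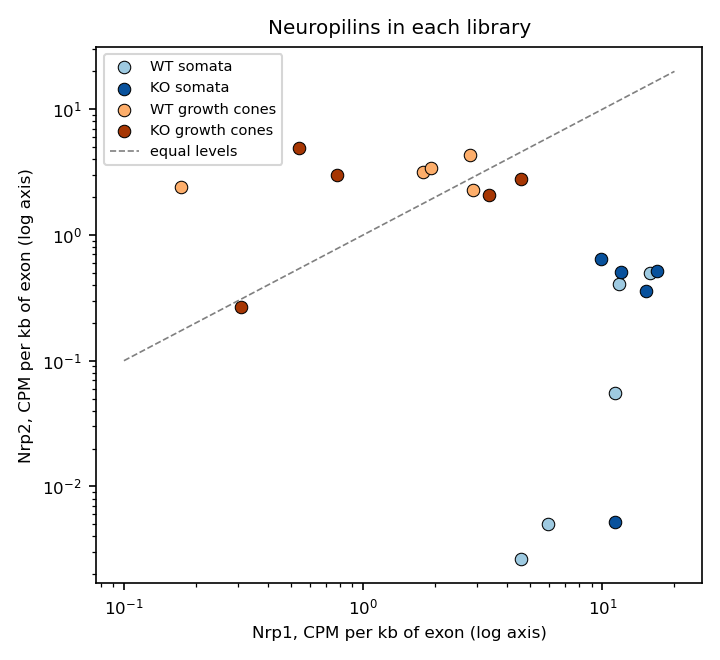
Nrp1 (x axis) against Nrp2 (y axis) in CPM per kb of exon, both on log axes, 1 point per library, coloured by group (KO is the label), with equal levels dashed. Soma libraries all lie below the line, where Nrp2 is 0.0466% to 6.06% of the 2 genes' level, and growth cone libraries lie on both sides of it at 38.0% to 93.3%.

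Genes that act with the receptors were examined as 3 lists. Of 9 co-receptors and partners tested in WT, 0 rose and 4 fell in growth cones: the adhesion molecules Nrcam (log2 fold change -2.52), L1cam (-1.73) and Chl1 (-1.82), which associate with neuropilins, and the receptor kinase Met (-1.14). Among those labelled KO 0 rose and 4 of 10 fell, namely L1cam (-1.93), Nrcam (-2.37), Chl1 (-2.58) and Cntn2 (-1.07). The medians of this list were -0.50 and -0.48. Among all genes tested, 23.1% rose and 19.7% fell in WT growth cones, and 21.6% rose and 17.0% fell in those labelled KO.

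Of 16 GTPases and their regulators tested, 4 rose and 4 fell in WT growth cones, and 4 rose and 2 fell in those labelled KO (medians 0.11 and -0.04). These counts were close to the share of all genes called in either direction, 42.8% in WT and 38.6% in libraries labelled KO. Rnd2, a small GTPase known for neuronal migration, rose by 3.34 in WT and 3.69 in libraries labelled KO on the log2 scale. Mras (1.20 and 1.15) and Rap1a (1.28 and 1.495), substrates of the Ras and Rap type, also rose in both, and Rac1, which binds class A and B plexins, fell in both (-1.21 and -1.12). By direction, 23.1% of all genes rose and 19.7% fell in WT, and 21.6% rose and 17.0% fell in libraries labelled KO. Of 20 kinases and cytoskeletal effectors tested, 1 rose and 10 fell in each genotype (medians -0.85 and -0.61). The collapsin response mediators Dpysl3 (-2.23 and -2.10), Crmp1 (-2.09 and -2.04) and Dpysl5 (-2.24 and -2.01) had the lowest p-values, and the gene that rose was Cdk5r1 (1.41 and 1.18), the activator of the kinase Cdk5.

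The second question was whether the family differed between libraries labelled KO and WT. In somata 0 of 29 members passed FDR 0.05 by edgeR, where 0.731% of all genes did, and 0 passed by DESeq2. An unadjusted p under 0.05 was found for 4 members (8.57% of all genes reached it). In growth cones 0 of 28 members passed by either tool, 0 had an unadjusted p under 0.05 (2.13% of all genes did), and 0.0% of all genes passed FDR 0.05. No member had growth cone groups apart from each other (0 of 28, against 0.532% of all genes). The interaction, the genotype effect in growth cones minus that in somata, gave 0 of 29 members by either tool, where 0.0397% of all genes passed FDR 0.05 (0.0113% upward and 0.0283% downward). An unadjusted p under 0.05 was reached by 0 members and 6.98% of all genes. The median log2 fold change of the members was 0.08 in somata and -0.09 in growth cones, where that of all genes was 0.00 and 0.01.

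**Figure D4:**
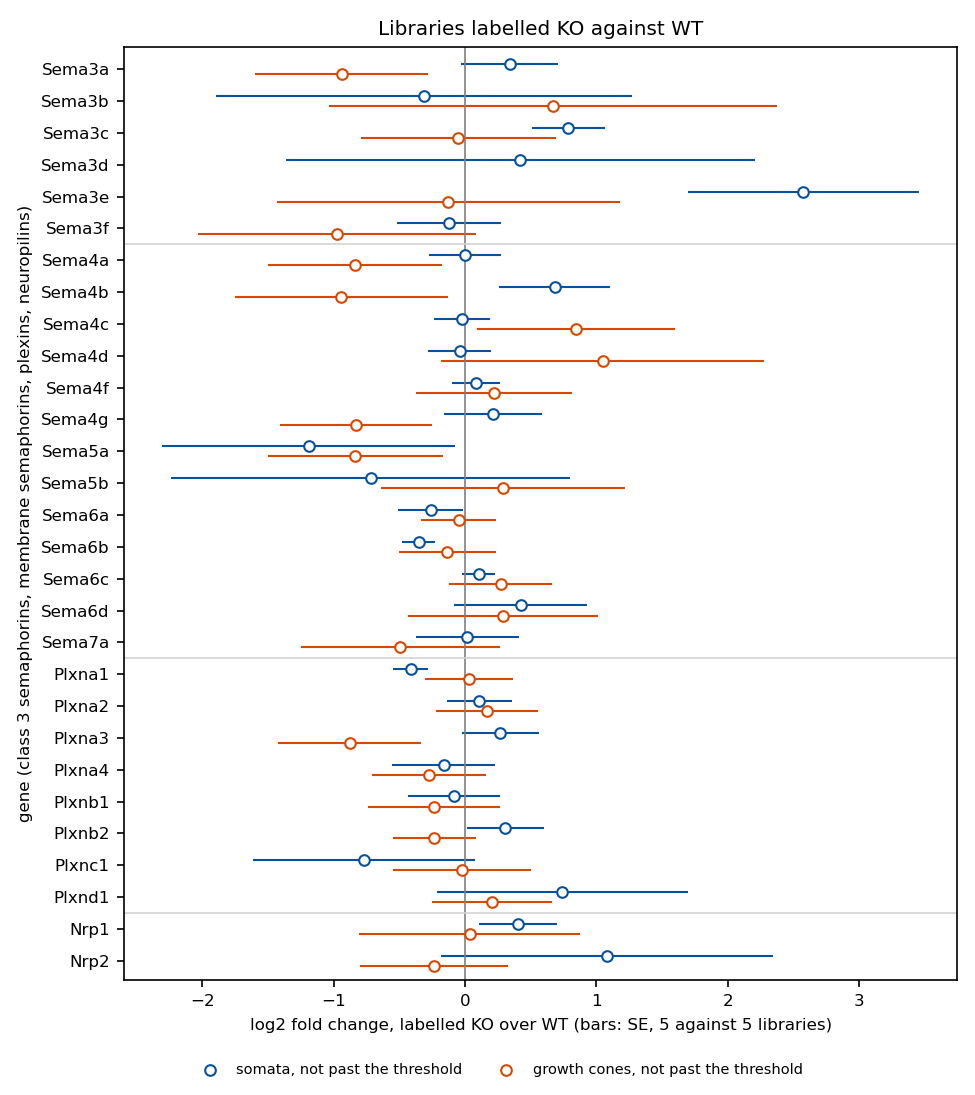
Log2 fold change of libraries labelled KO over WT (x axis) for each tested member (y axis), in somata (blue) and growth cones (orange); bars are SE of the edgeR fit of 5 against 5 libraries. No point passed FDR 0.05, and Sema3e in somata lies farthest from 0, at 2.58 ± 0.88.

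In somata the largest of these differences was that of Sema3e, whose levels were given above: every soma library labelled KO (50.2 to 108 CPM) was above every WT soma library (0 to 25.5 CPM). It was the 1 member of 29 without overlap (3.45%, against 3.17% of all genes). The fold was 5.96 (log2 fold change 2.58 ± 0.88), with an adjusted p of 0.34 by edgeR. Across the alternatives the adjusted p ran from 0.113, without WT soma library 12, to 0.977, with all 20 libraries in the fit. WT soma library 12, which had 0 counts of Sema3e, was the lowest of the WT somata for 19 of the 31 members, against 1 to 4 members for each of the other WT soma libraries. Summed interneuron markers were at 410 to 545 CPM with the KO label and 122 to 202 CPM in WT, a gap held by Npy alone (390 to 509 against 88.0 to 157 CPM). The 8 markers without Npy had 12.5 to 57.8 and 20.8 to 64.9 CPM, overlapping ranges. Of 7 corticothalamic neuron markers, 2 were called higher in somata labelled KO, against 0.416% of all genes, and 1 lower, against 0.315%. Tle4 (log2 fold change 1.80) and Hs3st4 (1.36) were the higher ones and Sla (-0.86) the lower one. The summed level of this list overlapped, at 821 to 1101 CPM with the KO label and 997 to 1206 CPM in WT. The part of other cells or neuron types in the Sema3e difference was not tested.

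The other members with an unadjusted p under 0.05 in somata had smaller differences and overlapping groups. Sema3c was 0.78 ± 0.28 higher in somata labelled KO (adjusted p = 0.372), with 110 to 225 CPM against 59.2 to 153. Plxna1 had a log2 fold change of -0.41 ± 0.13 (adjusted p = 0.289), with 108 to 129 CPM against 119 to 180, and Sema6b -0.35 ± 0.12 (adjusted p = 0.357), with 80.3 to 104 CPM against 101 to 146. The plot of 4 genes by library shows the overlap for Sema3c, Plxna1 and Sema6b and the separate soma groups of Sema3e. Of the pathway lists, 0 of 8 co-receptors, 0 of 17 GTPase genes and 1 of 20 effectors passed in somata, against 0.731% of all genes. The effector that passed was Fyn, a kinase that acts downstream of Sema3a, at -0.49 ± 0.07 (adjusted p = 0.00721).

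**Figure D5:**
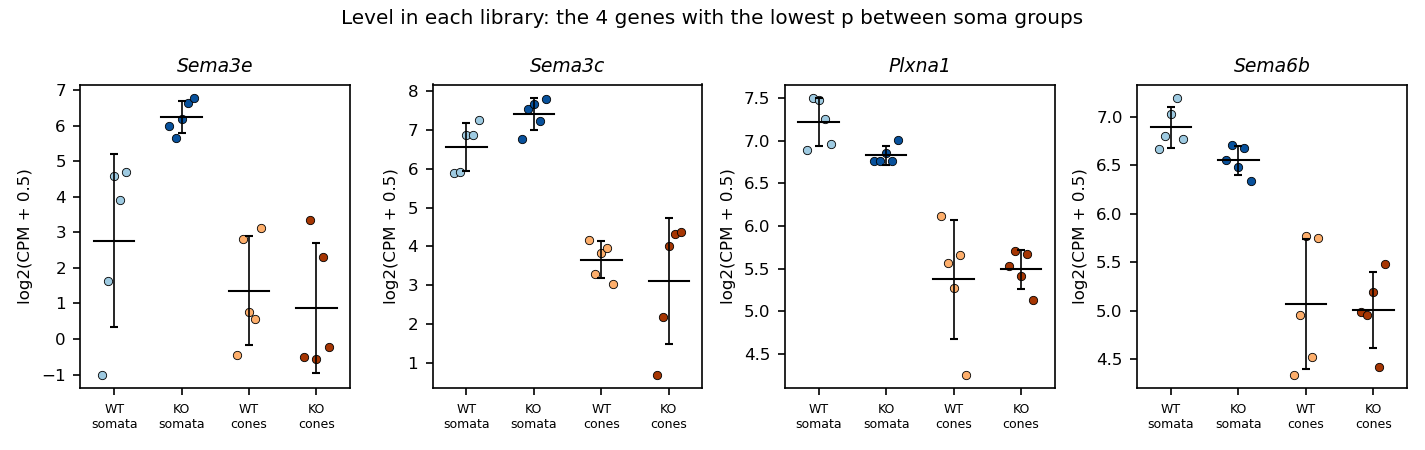
Level of the 4 members with the lowest p between soma groups, as log2(CPM + 0.5) (y axis) in each library (points) of the 4 groups, with the mean (line) and SD (bar); KO is the label. For Sema3e the soma points labelled KO (50.2 to 108 CPM) lie above all others, and for the other genes the soma groups overlap.

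In growth cones the lowest p-values belonged to Plxna3 (-0.88 ± 0.54), Sema4g (-0.83 ± 0.58) and Sema3a (-0.94 ± 0.66), each with an adjusted p of 0.999 by edgeR. The median SE over members was 0.63 log2 units here and 0.37 in somata, so a change had to be larger to be seen in growth cones. Nrp1 had 0.03 ± 0.84, Nrp2 -0.23 ± 0.56 and Plxnd1 0.21 ± 0.46. In the interaction the lowest p-values were those of Sema4b (-1.66 ± 0.85, adjusted p = 0.756), Plxna3 and Sema3e (-2.77 ± 1.67, adjusted p = 0.889). Genes called between compartments in 1 genotype only (Sema4g and Sema5b in WT, and Plxna3, Sema3a, Sema3e and Sema4a in libraries labelled KO) were thus not shown to differ between genotypes. The calls in both genotypes, 10 genes, made up 83.3% of the WT calls and 71.4% of those in libraries labelled KO, and 35.7% of the members tested in both, against 32.2% of all genes.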

How the data were processed

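RNA of 20 libraries (4 groups of 5, assigned from titles) was sequenced after SMART-seq v4 and Nextera XT, per the labels' protocols. The authors deposited raw counts per gene in 1 table with exon coordinates and exon length, per the file headers. Trimmomatic 0.39, STAR 2.7.1a, featureCounts 1.5.0 and GRCm39 are named in the submitters' processing notes, whereas 98.1% of genes in the table carry the GRCm38 exon intervals of GENCODE M21, which gave the symbols. How strand and reads with several matches were handled is not given in the sources used here.

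Counts were tested with edgeR 4.0.16 (R 4.3.3): filterByExpr with a minimum count of 10, TMM scaling, the quasi-likelihood test and Benjamini-Hochberg adjustment over all genes tested, in fits of the 2 groups compared (all 20 libraries for the interaction). Adjusted p-values are from this test unless another is named, and errors of log2 fold changes are SE derived from its F statistic. Levels are CPM with TMM factors over all 20 libraries, sums over marker lists included. Promoter windows came from a RefSeq table. No replicate pair agreed within sampling noise. The procedure was tested on simulated counts. Alternatives were upper-quartile scaling, DESeq2 size factors, DESeq2 1.42.0, no filter, all libraries in 1 fit, a replicate block and leaving out each library. Every member could be named. Those past the threshold are given with statistics, or the 3 with the lowest p where fewer than 3 passed, and up to 4 genes of a list. The members and lists were chosen with earlier results of these data known. The libraries carry no molecular identifiers, so limits from a count of 0 cover counting error only.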

Additional observations from a re-analysis of the deposited data

Results flagged for a closer look

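Single libraries stood far from the other 4 of their group in 3 of the 96 groups checked (members with a mean of at least 5 CPM), while chance alone would single out about 1 in 20 groups. Sema3a stood at 104.1 CPM in soma library 26 labelled KO, where the others had 31.5 to 48.8 CPM, and its call between compartments was lost without that library. In WT growth cone library 8, Sema5a stood at 35.0 CPM, where the others had 7.67 to 14.6 CPM. In the same library Sema6d stood at 12.6 CPM, where the others had 38.5 to 45.8 CPM.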

How the results depend on the processing

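Results were recomputed under other scalings, tools, filters and sets of libraries. None of the members given with a call or among the lowest p-values reversed its direction. Of the compartment calls, those of Sema3c, Sema6b, Sema6c, Plxna1, Plxna2 and Nrp1 in both genotypes, of Sema4c, Sema4f, Sema4g, Plxnd1 and Nrp2 in WT and of Sema3e in libraries labelled KO passed under every alternative run. Members called ranged from 11 to 12 in WT and from 9 to 14 in libraries labelled KO when 1 library was left out, with 9 without soma library 15 or 26 labelled KO; DESeq2 called 13 and 19 and upper-quartile scaling 13 and 11. All genes called ranged from 5776 to 6536 in WT and from 5311 to 6449 in libraries labelled KO in those fits. Genes called between genotypes in somata, 109, were 402 by DESeq2, 30 with all 20 libraries in the fit and 67 to 107 with 1 library left out. In growth cones 0 became 11 by DESeq2 and 7 with all 20 libraries, and 0 with any 1 library left out. The interaction, 7 genes, gave 262 by DESeq2 and 5 to 12 with 1 library left out. Members called were 0 in each of these. The members' median between genotypes changed sign in growth cones without library 7 labelled KO (0.01). In somata it changed sign under the replicate block (-0.04), and also for the same 8 libraries with no replicate block (-0.02). The cause of these shifts was not tested.

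Experiment numbers paired the libraries weakly at most, and the main fits did not use them as pairs. Deviations of same-numbered libraries correlated by 0.013 to 0.101 over 5 growth cone pairs and by -0.021 to 0.09 over 4 soma pairs. Libraries with different numbers correlated by -0.069 to 0.037 and by -0.083 to 0.058. Still, 4 of 5 and 3 of 4 WT libraries correlated best with their own number. With a replicate block 34 genes were called between genotypes in somata, against 80 for the same 8 libraries with no replicate block (added after the data were seen), 0 in growth cones and 0 for the interaction, and 0 members were called in each.

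The limits of depth bear on Sema3g and Plxnb3, and the wide spread between growth cone libraries bears on every genotype comparison there. Compartment differs together with tissue, RNA input and experiment number.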
